A study of Mus musculus with 6 samples.

Results

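Enterocytes with high levels of Car4 and Ms4a18 were examined in single-cell RNA data of the mouse jejunal epithelium. They were chosen by their counts and not by clustering: of 23823 barcodes that passed the limits on quality and contained neither a high share of the Paneth cell gene Lyz1 nor any count of the leukocyte genes Cd3e, Cd3g and Ptprc, those in the top 10% of the summed share of Car4, Ms4a18, Ces1f and Rgn were kept unless they were also in the top 10% of the summed share of the villus tip genes Ada, Slc28a2, Clca4a and Nt5e. This gave 2352 cells, called members here. Each top 10% held 2383 barcodes, and the 31 barcodes in both were left out.

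The libraries came from male C57BL/6J mice that ate a low-fat diet (LFD) or a high-fat diet (HFD) for 16 weeks and had a sham operation or a vertical sleeve gastrectomy (VSG), an operation that removes most of the stomach along its outer curve. Jejunal epithelium was collected 5 weeks after the operation, at 30 weeks of age, with 3 mice in LFD sham, 3 in HFD sham and 2 in HFD VSG. The mice of a group were pooled, and a crypt-enriched and a villus-enriched suspension were each sequenced once, so each of the 6 libraries is the only 1 of its kind. Since no group had a replicate library, the spread between mice or between preparations is unknown and no test was made, and all intervals (95%, exact Poisson or binomial) cover counting error only.

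Enterocytes are the absorptive cells of the villus. They leave the crypt, move up the villus and are shed at its tip, and on the way their expression passes from antimicrobial genes near the base to transporters of sugars and amino acids and to lipoprotein and purine-handling genes near the tip. Car4 encodes a carbonic anhydrase anchored to the outer face of the apical membrane, where it speeds the exchange of carbon dioxide and bicarbonate. Ms4a18 encodes a membrane protein of the MS4A family, Ces1f a carboxylesterase that hydrolyses ester bonds in lipids and drugs, and Rgn (regucalcin) a calcium-binding lactonase.

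The fraction labels ran against the marker content of the libraries in all 3 groups. Over all eligible barcodes, 7 stem cell markers summed to 152 UMIs per 1000000 UMIs (CPM) in the crypt-labelled and 850 CPM in the villus-labelled LFD sham library, to 168 and 347 CPM in HFD sham, and to 251 and 704 CPM in HFD VSG. The 8 markers of cycling cells were likewise higher in each villus-labelled library (300 to 730 CPM) than in each crypt-labelled one (113 to 152 CPM), and the 4 villus tip genes were lower (24.2 to 223 against 523 to 833 CPM). The 10 enterocyte markers were lower in the villus-labelled libraries as well (29875 to 54269 against 71705 to 75747 CPM). The libraries are therefore called crypt-labelled and villus-labelled. The called barcodes held 60522766 to 155522445 UMIs (counts of unique molecules) per library, and at most 0.45% of the barcodes of the smaller library were shared by any pair of libraries. The villus-labelled HFD VSG library was the deepest, with a median of 32474 UMIs per eligible barcode against 9922 to 16861 in the other 5.

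The 4 genes that defined the members lie on 4 chromosomes (GRCm38): Car4 at chr11:84957786-84966044 on the plus strand, Ms4a18 at chr19:10997025-11018031 and Ces1f at chr8:93256236-93279747 on the minus strand, and Rgn at chrX:20549787-20562089 on the plus strand. Ms4a18 lies beside its relatives Ms4a10 (chr19:10962293-10974670) and Ms4a8a (chr19:11067471-11081102), and Ces1f between Ces1e (chr8:93201218-93229619) and Ces1g (chr8:93302369-93337308). The promoter stretches below are printed because both genes are read together in the same cells; they cover 250 to 71 bases before the RefSeq start (GRCm38.p6), on the strand of the gene, and capitals mark matches to motifs of enterocyte regulators.
Car4, chr11:84957504-84957683, plus strand: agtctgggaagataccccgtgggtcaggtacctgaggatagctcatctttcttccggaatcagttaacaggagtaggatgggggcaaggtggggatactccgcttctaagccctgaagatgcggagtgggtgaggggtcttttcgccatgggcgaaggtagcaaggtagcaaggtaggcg
Ms4a18, chr19:11018034-11018213, minus strand: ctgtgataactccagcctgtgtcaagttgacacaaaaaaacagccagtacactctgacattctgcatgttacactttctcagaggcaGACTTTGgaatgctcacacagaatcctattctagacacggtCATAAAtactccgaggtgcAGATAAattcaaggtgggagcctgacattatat
Both strands were searched for 3 motifs that do not overlap each other here: AGATAA for Gata4 and its relatives, CAAAGTC for the Hnf4 receptors, and CATAAA for the Cdx proteins. In the Ms4a18 stretch the Hnf4 motif lay on the other strand, as GACTTTG, from 163 bases before the start. Its Cdx motif lay from 122 and its Gata4 motif from 103 bases before the start. The Car4 stretch held none of the 3 motifs. Of 32851 promoter stretches of this length, 7.73% held the Gata4 motif, 2.85% the Hnf4 motif and 7.98% the Cdx motif, and the matches are descriptions of letters only.

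The members were chosen by the share of Car4, Ms4a18, Ces1f and Rgn, so the levels of these genes describe the choice. The lowest member and the highest barcode outside both had 6.28 UMIs of the 4 genes per 10000 UMIs, and the choice cut a continuous range: 452 members lay within 10% above the threshold and 608 barcodes within 10% below it. A member held a median of 18 UMIs of the 4 genes, from 1 to 131, and 228 members (9.69%) held fewer than 5. Car4 gave 58.1% of these UMIs, Ces1f 19.5%, Ms4a18 16.1% and Rgn 6.32%. All 4 genes were detected in 46.9% of members, and 5.70% had only 1 of them. Without Car4 in the score, 1447 of the members (61.5%) were chosen again, which was 62.3% of the 2322 cells then chosen.

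Car4 in members was 488, 436 and 493 CPM in the crypt-labelled LFD sham, HFD sham and HFD VSG libraries and 466, 429 and 561 CPM in the villus-labelled ones, in the same order. Ms4a18 in members was 157, 152 and 147 CPM in the crypt-labelled and 142, 149 and 136 CPM in the villus-labelled libraries. Ms4a18 stayed within 136 to 157 CPM across the 6 libraries. The highest Car4 value was that of the villus-labelled HFD VSG library (interval 552 to 569 CPM). The lowest was that of villus-labelled HFD sham (418 to 441 CPM). Ces1f was 155, 249 and 141 CPM in the crypt-labelled and 163, 267 and 129 CPM in the villus-labelled libraries, so that both HFD sham libraries were above the other 4. Rgn was 32.8, 53.3 and 54.9 CPM in the crypt-labelled and 42.3, 60.7 and 56.7 CPM in the villus-labelled libraries, lowest in the pair of LFD sham libraries.

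Other enterocytes served as the comparator: 9725 eligible barcodes in neither top 10%, with a share of Fabp1, Fabp2, Apoa1 and Alpi at or above the median. In them Car4 ranged from 21 CPM (crypt-labelled LFD sham) to 124 CPM (villus-labelled HFD VSG) and Ms4a18 from 15.3 to 77 CPM. Since cells chosen for high counts are also chosen for chance, the choice was repeated on a random share of 0.5 of each barcode's UMIs and the levels were read in the UMIs left. This choice gave 2321 cells, of which 1775 were members (75.5% of the members). On the unused UMIs, the log2 ratio of members to other enterocytes was 1.92 to 4.02 for Car4, 1.12 to 2.73 for Rgn, 0.66 to 1.63 for Ces1f and 0.43 to 2.88 for Ms4a18 over the 6 libraries. The lowest Ms4a18 ratio was that of the villus-labelled HFD VSG library (118 against 88.1 CPM), where the name of the group thus rested mainly on Car4.

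Whether these genes were found together was read without the choice of members, over eligible barcodes thinned to 3000 UMIs. The 2124 eligible barcodes with fewer UMIs were left out. The genes themselves were set with earlier results of these data known, so their joint detection is a description. The barcodes read include other cell types, and the part of those cells in the joint detection was not tested. Ms4a18 was detected in 15.8% to 24.8% of barcodes with a Car4 UMI and in 3.24% to 12% of those without, and it was more frequent with Car4 in each of the 6 libraries. Ces1f was detected in 12.5% to 38.0% of barcodes with and 5.38% to 24.1% without Car4, again higher with Car4 within each library. For Ces1f and Rgn the exact 95% intervals overlapped in crypt-labelled LFD sham and in both HFD sham libraries. For Car4 and Rgn they overlapped in crypt-labelled LFD sham, and for Ms4a18 and Rgn in 2 of the 6 libraries. In villus-labelled HFD VSG Rgn was detected in 9.46% (7.28 to 12) of barcodes with and 8.96% (7.98 to 10.0) without a Ms4a18 UMI, and in villus-labelled LFD sham in 4.56% and 2.92%. The villus tip gene Ada, adenosine deaminase, went the other way in each library, with 0.27% to 18.6% of barcodes with and 1.40% to 29.3% without Car4.

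Free RNA was measured in droplets with under 100 UMIs. Car4 was 28.5 to 180 CPM and Ms4a18 14.2 to 60.8 CPM in these droplets, highest for both in the villus-labelled HFD VSG library. Car4 in other enterocytes was below the free RNA in that library (124 against 180 CPM) and in villus-labelled HFD sham (74.2 against 77.1 CPM). It was also below in crypt-labelled LFD sham (21 against 28.5 CPM) and crypt-labelled HFD VSG (35.1 against 48.6 CPM). It was above in crypt-labelled HFD sham (39.9 against 31.1 CPM) and villus-labelled LFD sham (73.96 against 69.95 CPM). Ms4a18 in other enterocytes was below the free RNA in crypt-labelled LFD sham and HFD VSG and above it in the remaining libraries. Unthinned, Car4 was detected in 94.2% to 98.8% of members at median depths of 15402 to 35408 UMIs. In barcodes with at least 3 leukocyte UMIs, which should lack Car4, it was detected in 0.662% to 15.2% at median depths of 3148 to 5584 UMIs. In villus-labelled HFD VSG these barcodes had 104 CPM of Car4. In barcodes with at least 2% Lyz1 it was detected in 2.13% to 30.2% at median depths of 4851 to 60044 UMIs. Its level in these was 0.94 to 7.84 CPM.

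**Figure D1:**
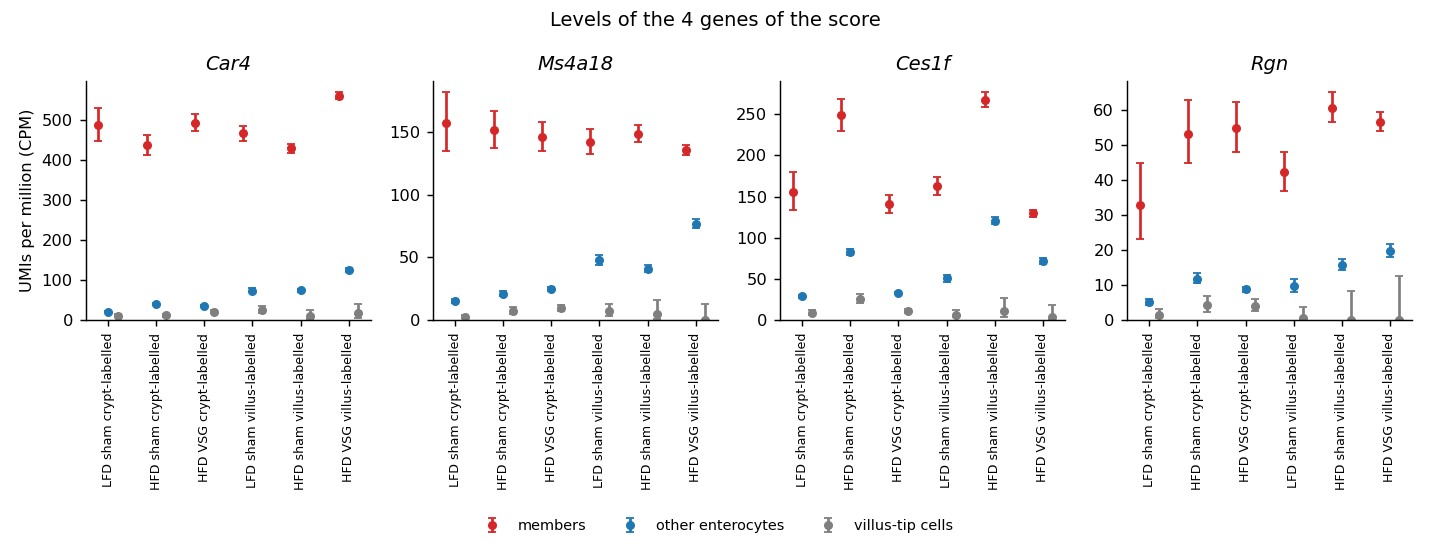
Levels in CPM of the 4 genes of the score in members (red), other enterocytes (blue) and villus tip cells (grey), by library, with 95% Poisson intervals as bars. Car4 in members lies between 429 and 561 CPM in all 6 libraries, while in other enterocytes it runs from 21 to 124 CPM.

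Members were most frequent in the villus-labelled libraries of both HFD groups. They were 59 of 4345 eligible barcodes (1.36%, interval 1.04 to 1.75) in crypt-labelled LFD sham, 162 of 3140 (5.16%, 4.41 to 5.99) in HFD sham and 241 of 5061 (4.76%, 4.19 to 5.39) in HFD VSG. In the villus-labelled libraries they were 283 of 3400 (8.32%, 7.42 to 9.30), 791 of 4044 (19.6%, 18.3 to 20.8) and 816 of 3833 (21.3%, 20.002 to 22.6). The LFD sham share was thus the lowest within each fraction, and the HFD sham and HFD VSG shares lay within each other's counting intervals in the crypt-labelled pair and had overlapping intervals in the villus-labelled pair. Shares of cells depend on how each suspension was made, and with 1 library per group preparation and group cannot be told apart.

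The order of the villus-labelled HFD sham and HFD VSG shares depended on the setting. In a setting chosen after seeing the data, barcodes of at least 3000 UMIs were thinned to 3000. Scores then had to exceed the 90th percentile of 2 UMIs. In the order LFD sham, HFD sham and HFD VSG, the shares were 1.32%, 4.98% and 3.94% in the crypt-labelled and 6.17%, 13.4% and 15.1% in the villus-labelled libraries. With Ms4a18, Ces1f and Rgn alone in the score, the villus-labelled shares were 7.53%, 24.3% and 13.1%, so that HFD sham was then above HFD VSG. The crypt-labelled shares were then 1.80%, 7.77% and 5.12%. HFD sham was also above HFD VSG in the villus-labelled libraries with the top 5% of score A (11.2% and 10.4%) and with at most 10% mitochondrial UMIs (16.1% and 14.4%). LFD sham remained the lowest of its fraction in all of these settings, and Ces1f stayed in the score in each of them. In other enterocytes Ces1f was also higher in HFD sham than in LFD sham. It was 82.4 against 29.0 CPM in the crypt-labelled and 121 against 50.6 CPM in the villus-labelled pair. The part of Ces1f in the shares was not tested.

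**Figure D2:**
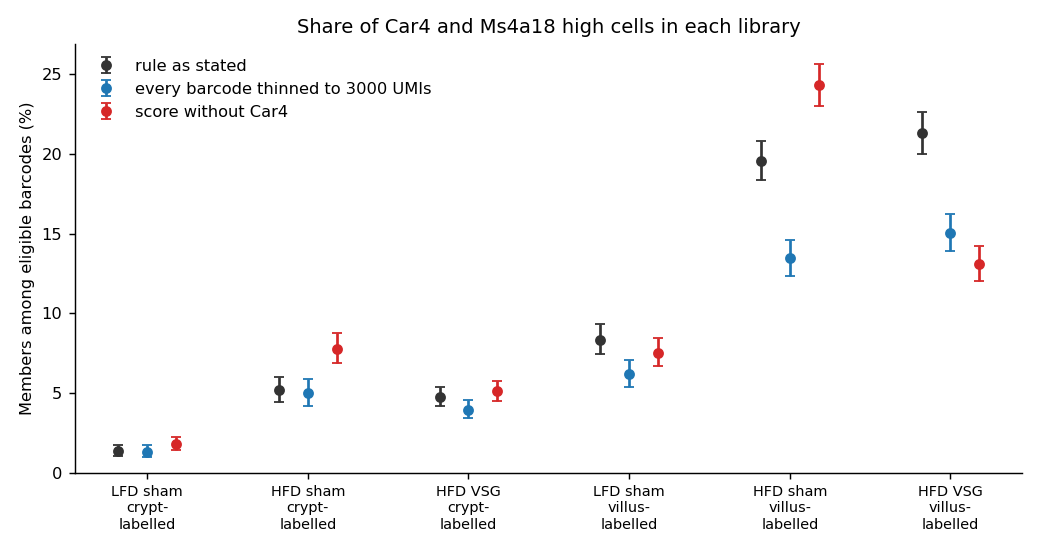
Share of eligible barcodes that were members, in percent, by library under the rule (black), with barcodes thinned to 3000 UMIs (blue) and without Car4 in the score (red), with 95% binomial intervals as bars. The LFD sham share is the lowest of each fraction under each setting drawn, and among these 3 settings the villus-labelled HFD VSG share lies below that of HFD sham only where Car4 is left out.

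The label of enterocyte was checked against markers. Fabp1, the liver-type fatty acid binding protein, was 19432 to 24502 CPM in members and 19775 to 28447 CPM in other enterocytes, and was detected in all members. The 10 enterocyte markers summed to 36766 to 55576 CPM in members and 79611 to 91424 CPM in other enterocytes, a gap that the choice of the comparator by Fabp1, Fabp2, Apoa1 and Alpi widens. The 7 stem cell markers were 20.4 to 59.4 CPM in members, and Lgr5, the marker of crypt base stem cells, had 0 to 6 UMIs per library. The 8 cycling markers were 21.5 to 131 CPM in members against 12.5 to 36.6 CPM in other enterocytes. Thinned to 3000 UMIs, 4.55% to 14% of members had a UMI of a cycling marker against 2.998% to 8.71% of other enterocytes. Markers of tuft cells (0.86 to 8.83 CPM), stroma (0 to 0.735 CPM) and B or plasma cells (0 to 3.31 CPM) were near 0. Paneth cell markers were 380 to 2872 CPM in members and 394 to 3009 CPM in other enterocytes, enteroendocrine markers 17.1 to 138 and 23.3 to 73.5 CPM, and immune markers 0.77 to 21 and 0.35 to 24.5 CPM. The 8 goblet markers were 328 to 1985 CPM in members and 497 to 1197 CPM in other enterocytes, and 52 members (2.21%) had a high doublet score. The part of these markers in the results below was not tested.

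Against other enterocytes, members had less RNA of brush border hydrolases, nutrient transporters and lipoproteins and more of ribosomal proteins and of a small set of epithelial response genes led by the gasdermins Gsdmc2 and Gsdmc4. Of 11330 genes measured, 1966 (17.4%) were higher in members by a log2 ratio above 0.5 in all 6 libraries and 509 (4.49%) were lower by as much. The median of all genes was itself shifted by 0.26, and with scaling by median ratios the counts were 1244 higher and 931 lower, so the split depends on the scaling and single ratios are best read beside that shift. Members were cut from the same barcodes as the comparator by gene counts, so these ratios are descriptions. A sum under 3 UMIs was set to 3, and with the sums as counted 1803 of the 1966 genes and all 509 met the same limits. Against all other eligible barcodes, crypt cells included, 137 of 13054 genes were higher and 374 lower.

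The brush border hydrolases cut sugars and peptides at the apical membrane. Of 17 measured of 18 listed, 0 were higher and 14 lower in all 6 libraries, with a median log2 ratio of -1.21. The comparator was chosen by Fabp1, Fabp2, Apoa1 and Alpi, which are among the genes of the brush border, fat, mid villus and villus tip lists. This choice raises the summed level of those genes in the comparator, and its part in the list medians was not tested. Sis (sucrase-isomaltase) was 5610, 3860 and 3342 CPM in members of the crypt-labelled libraries (LFD sham, HFD sham, HFD VSG) and 4850, 3431 and 1300 CPM in the villus-labelled ones, against 4009 to 10168 CPM in other enterocytes. The villus-labelled HFD VSG members thus had the least Sis. Lactase (Lct) had a log2 ratio of -2.26, trehalase (Treh) -2.29 and the sphingomyelinase Enpp7 -2.42. Against all other eligible barcodes, in place of enterocytes alone, the median of the list was -0.62, and that of the fat uptake list below was -0.26.

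Of 16 transporters of sugars, peptides and amino acids, 1 was higher and 9 were lower in all 6 libraries (median -0.99, or -0.29 against all other eligible barcodes). The glucose transporters Slc5a1 and Slc2a2 had log2 ratios of -1.38 and -2.36, and the sugar sensor Slc5a4b -2.67. The 1 higher gene was Slc1a1, a carrier of glutamate and aspartate, at 1.87. Of 18 genes of fat uptake and chylomicron assembly 0 were higher and 10 lower (median -0.75). Fabp2, the intestinal fatty acid binding protein, had a log2 ratio of -1.46, and the lipoprotein genes Apoa4, Apoc3 and Apoc2 had -2.28, -2.60 and -3.15. Fabp1, the liver-type binding protein, had -0.02. Fabp1 and Fabp2 helped to choose the comparator, and against all other eligible barcodes they had 0.48 and -0.74.

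Genes used for cholesterol went both ways. Sqle (squalene epoxidase) and Hmgcs1, enzymes of cholesterol synthesis, had log2 ratios of 2.49 and 1.32, each higher in all 6 libraries. Npc1l1, the apical cholesterol importer, had -1.19. Of 10 genes of the list, 3 were higher and 4 lower.

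Near relatives of the defining genes went both ways. Of 15 other carbonic anhydrases and acid-base transporters 1 was higher, the sodium-potassium-chloride cotransporter Slc12a2 (1.15), and 3 were lower. Against all other eligible barcodes, crypt cells included, Slc12a2 had -2.59. Car2, the cytosolic carbonic anhydrase, was 4.23 to 7.78 CPM in members and 12.2 to 18.4 CPM in other enterocytes (log2 ratio -1.34), and Slc26a3, the chloride-bicarbonate exchanger, had 0.45. Car9, a membrane carbonic anhydrase, was 47.3 to 61.5 CPM in members and 12.6 to 46.9 CPM in other enterocytes (0.83), above in each library but not past 0.5 in all 6, and Car12 was 1.21 to 2.59 and 0.645 to 1.23 CPM (0.48, or -1.07 against all other eligible barcodes). Of the Ms4a family only Ms4a8a and Ms4a10 were measured among the 11 listed, with log2 ratios of -0.21 and -0.93 beside Ms4a18. Of 9 carboxylesterases, Ces1e, the neighbour of Ces1f, was higher (0.99), Ces1d was lower (-1.12), and the abundant Ces2e and Ces2c had -0.33 and 0.03. Ces1 genes are similar in sequence, so their counts may be shared.

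The place of the members along the villus was read from 3 lists. Of 14 genes of the villus base 1 was higher (Aldh1b1, 1.30) and 0 were lower, with a median of 0.26, equal to that of all genes. Against all other eligible barcodes the median of this list was 0.71, where that of all genes was 0.03. Lypd8, a secreted protein that keeps bacteria from the epithelium, was 1906 to 2886 CPM in members and 384 to 2090 CPM in other enterocytes. The antimicrobial lectin Reg3b was 4755 to 22821 CPM in members and 7860 to 21188 CPM in other enterocytes, in overlapping ranges. Of 12 genes of the middle of the villus 0 were higher and 8 lower (median -1.25, or -0.62 against all other eligible barcodes). Of 20 villus tip genes not used in the rule, 2 were higher (Sfn and S100a6, the latter -1.10 against all other eligible barcodes) and 7 lower (median -0.71, or -1.01 against all other eligible barcodes). The mid villus list holds Fabp1 and Fabp2 and the tip list Apoa1, which chose the comparator.

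Bins of rising score were made from eligible barcodes, without those that the rule counted as high in the villus tip genes. In the median library, brush border hydrolases were 16407 CPM in the barcodes of these bins with a score of 0. They were 17658 CPM in those above 0 and up to the 80th percentile, and 13174, 11644, 10771 and 9400 CPM in the 4 bins above. Ribosomal proteins were 23282, 25747, 39119, 41594, 42861 and 47222 CPM in the same 6 bins. Goblet markers were 19251 CPM at a score of 0 and 369 CPM in the top bin, and stem cell markers 669 and 36.6 CPM. Median depth was 8185 UMIs at a score of 0 and 13231 to 18442 UMIs in the bins above. The part of other cell types and of depth in these values was not tested. Single libraries differed from these medians. In villus-labelled HFD VSG the 5 bins above 0 had 79153, 73801, 73678, 76891 and 71103 CPM of ribosomal proteins, which did not rise, and brush border hydrolases were 4259 CPM in the first of them and 4476 CPM in the next. In villus-labelled LFD sham ribosomal proteins were 43247, 43605, 43853, 43270 and 51721 CPM.

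All 22 ribosomal protein genes were higher in members in all 6 libraries, with a median log2 ratio of 1.57, or 0.89 against all other eligible barcodes. Their sum was 37962 to 74788 CPM in members and 8735 to 35882 CPM in other enterocytes. The villus-labelled HFD VSG library was the highest in both, and within each library members were above. The 30 nuclear genes of oxidative phosphorylation and the 13 mitochondrial genes held 0 genes past 0.5 in all 6 libraries in either direction, with medians of 0.16 and -0.07, and the first is -0.09 with scaling by median ratios.

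Of 22 genes of glutathione and peroxide defence 4 were higher and 4 lower, beside 17.4% and 4.49% of all genes. The median of the list was 0.21, below the 0.26 of all genes. The glutathione peroxidases Gpx1 and Gpx2, which reduce peroxides, were higher, with log2 ratios of 2.06 and 1.48, as were Prdx6 and Gsr. Gpx4, Prdx5, Gclm and Cat were lower. Gpx1 was 572, 763 and 916 CPM in members of the crypt-labelled and 610, 802 and 1278 CPM in those of the villus-labelled libraries, highest after VSG in both fractions. Of 23 xenobiotic cytochromes and conjugating enzymes 0 were higher and 12 lower (median -0.75), with Cyp3a11 at -3.55 and Cyp2c29 at -3.67.

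Of the 21 genes of ketogenesis and fatty acid oxidation 2 were higher and 0 lower (median 0.37). Of 9 genes of gluconeogenesis and fructose use 0 were higher and 5 lower (median -1.05), with Pck1, which encodes the enzyme that commits carbon to glucose synthesis, at -2.56. Of 13 glycolytic genes 1 was higher and 1 lower.

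Genes of mineral uptake were few. Tfrc, the transferrin receptor, was 290 to 488 CPM in members and 60.9 to 160 CPM in other enterocytes (1.61). Slc40a1, the iron exporter ferroportin, was 1.11 to 3.92 CPM in members, with as few as 2 UMIs in a library, against 0.17 to 0.94 CPM. Cldn2, a claudin that lets cations and water pass between cells, was higher (2.77) at 4.32 to 16.8 CPM against 0.64 to 3.51 CPM, but had -0.80 against all other eligible barcodes. Of 8 genes of calcium absorption 1 was higher and 2 lower, of 7 of iron absorption 2 and 1, and of 8 of ileal bile acid handling 1 and 0. The last was Nr1h4, the bile acid receptor FXR, at 34.5 to 52.0 CPM in members and 16.6 to 23.9 CPM in other enterocytes (log2 ratio 1.06). Of 10 genes of retinoid uptake and conversion 0 were higher and 3 lower, with Bco1, which cleaves beta-carotene, at -3.06.

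Of 27 regulators of enterocytes 4 were higher and 2 lower, beside 17.4% and 4.49% of all genes. Nr5a2 (LRH-1), a nuclear receptor of crypt and liver cells, was 42.6 to 66.0 CPM in members and 16.6 to 28.8 CPM in other enterocytes, and its ranges did not overlap (log2 ratio 1.34). Klf5, a factor of growing epithelial cells, had 0.59, and Id2, which inhibits helix-loop-helix factors, -1.26. Hnf4g, a nuclear receptor of mature enterocytes, had -0.11.

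Of 13 genes of the type 2 cytokine response 6 were higher and 0 lower (median 0.73): Gsdmc2, Gsdmc3, Gsdmc4 and Pla2g4c, described below, and Duox2 and Duoxa2, which make hydrogen peroxide at the apical membrane. Pla2g4c counted among them only because its 0 UMIs in crypt-labelled LFD sham members were set to 3, and with the sums as counted 5 were higher. The summed list was below other enterocytes in LFD sham members, at 199 against 235 CPM (crypt-labelled) and 200 against 206 CPM (villus-labelled). It was 251 against 245 CPM in villus-labelled HFD sham and 411 against 250 CPM in crypt-labelled HFD sham. In HFD VSG it was 1210 against 377 CPM (crypt-labelled) and 702 against 294 CPM (villus-labelled). Genes of antigen presentation and of the interferon response held none higher in all 6 libraries. Of 7 MHC class II genes 0 were higher and 3 lower (median -1.5), and of 12 interferon genes 0 and 2. Among genes of dissociation stress, the heat shock genes Hsph1 and Hspa1b had 2.29 and 2.19, while the immediate early genes Fos and Jun had -0.55 and -0.28, and 2 of 11 were higher. Of 6 transcripts of damaged droplets 0 were past 0.5 in all 6 libraries.

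**Figure D3:**
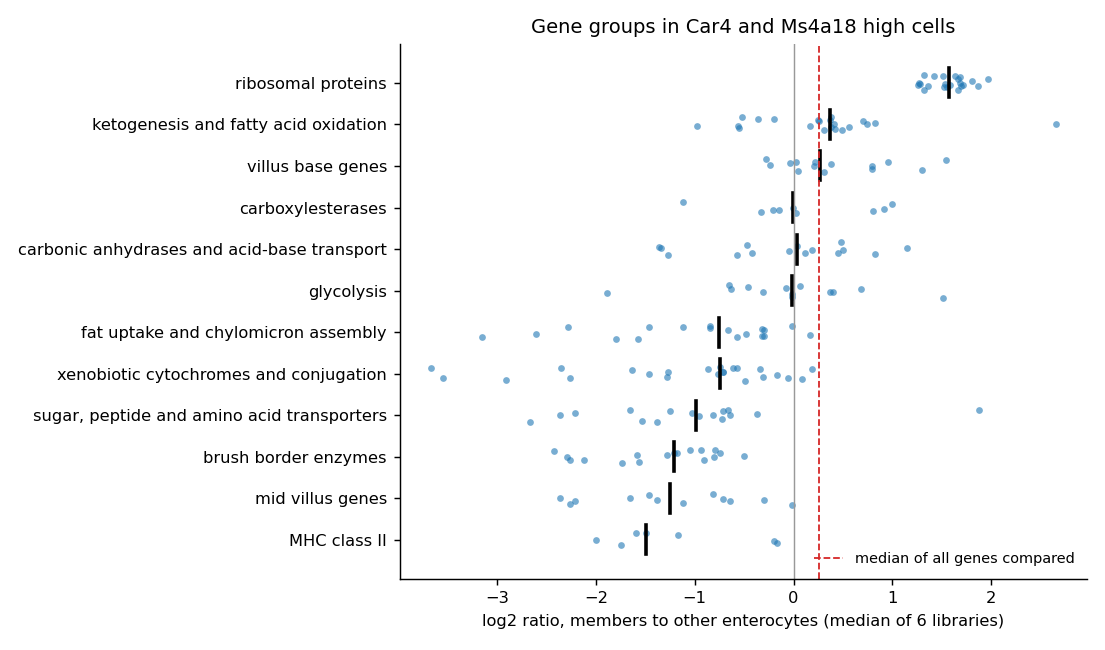
Log2 ratio of members to other enterocytes for the genes of 12 lists; each point is a gene's median over the 6 libraries, black bars are list medians and the dashed line is the median of all genes compared (0.26). Of the lists drawn, ribosomal proteins (1.57) have the highest median and MHC class II genes (-1.5) the lowest.

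The 12 genes with the highest median ratios and the 12 with the lowest were read off the whole table. Gsdmc2 (5.36), Gsdmc4 (5.27) and Gsdmc3 (4.35), pore-forming gasdermins that lie side by side at chr15:63824346-63912297, were among the 12 highest, as were Fgfbp1 (4.58) and Bmp3, a ligand of the bone morphogenetic protein family (4.29). Bmp3 was 51.8, 51.1 and 51.2 CPM in members of the crypt-labelled and 74.3, 62.4 and 49.5 CPM in those of the villus-labelled libraries, against 0.97 to 16.2 CPM in other enterocytes. The members of each library were above the other enterocytes of all libraries, and 53.7% of members against 4.37% of other enterocytes had a Bmp3 UMI. Dmbt1, a secreted scavenger receptor that binds bacteria, was 250 to 988 CPM in members and 11.6 to 109 CPM in other enterocytes (4.14). The others were Tln2 (4.28), Rbp7 (4.13), the potassium channel subunit Kcne3 (4.07), Acacb (3.93), the phospholipase Pla2g4c (3.92) and 1700097N02Rik (3.88). Pla2g4c was at 0 UMIs in crypt-labelled LFD sham members, where other enterocytes had 1.20 CPM, and its 182 UMIs in crypt-labelled HFD sham came from 1 member. Against all other eligible barcodes, crypt cells included, Fgfbp1, Kcne3 and 1700097N02Rik had -0.18, -0.79 and -0.15, so these 3 set members apart from other enterocytes and not from the rest. Gsdmc2 (2.62), Gsdmc4 (2.69), Bmp3 (2.36) and Dmbt1 (0.97) stayed above 0 in that comparison.

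At the other end was Cubn (-4.42), which encodes cubilin, the receptor for vitamin B12 bound to intrinsic factor. It was 13.0, 58.2 and 19.6 CPM in members of the crypt-labelled and 6.07, 33.8 and 1.31 CPM in those of the villus-labelled libraries, against 70.9 to 455 CPM in other enterocytes. The ranges did not overlap, and the HFD sham members had the most in each fraction. Next were the lactate carrier Slc5a12 (-4.09), Gm5485 (-4.06), the proline-degrading enzyme Aldh4a1 (-3.80), Cyp2c29, Cyp3a11, Npl (-3.31), Sectm1b (-3.25), Slc7a15 (-3.20), Susd2 (-3.19), Apoc2 and the selenium carrier Selenop (-3.06).

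The gasdermin counts were uneven among members. Thinned to 3000 UMIs, 5.45%, 8.67% and 17.3% of members of the crypt-labelled libraries (LFD sham, HFD sham, HFD VSG) and 6.20%, 7.15% and 24.1% of those of the villus-labelled libraries had a UMI of Gsdmc2, Gsdmc3 or Gsdmc4. In other enterocytes the thinned shares were 0.0545% to 1.64% and in villus tip cells 0% to 1.07%. The members of every library were above, and those of both HFD VSG libraries were the highest. Unthinned, the shares in members were 17.9% to 63.1%. Free RNA held Gsdmc2 at 0.50 to 25.8 CPM. These gasdermins are close copies of each other, so reads may have been shared among them.

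Members with at least 5 UMIs of these gasdermins numbered 1, 7 and 34 in the crypt-labelled and 9, 27 and 234 in the villus-labelled libraries, 28.7% of all members in the last. In villus-labelled HFD VSG these 234 cells had 683 CPM of Car4 and 112 CPM of Ms4a18, while the 301 members with no gasdermin UMI had 468 and 170 CPM. Brush border hydrolases were 2407 CPM in the former and 6161 CPM in the latter, ribosomal proteins 80105 and 63696 CPM, and Pla2g4c 331 and 0.60 CPM. The median depths of both were close in this library, at 37321 and 33682 UMIs. They were further apart in villus-labelled HFD sham (23686 and 14712 UMIs) and crypt-labelled HFD sham (23057 and 16282 UMIs). The part of depth in the split was not tested. In the 5 libraries with at least 7 such cells, Car4 was higher, Ms4a18 and Ces1f lower, brush border hydrolases lower and ribosomal proteins higher in the cells with gasdermin counts. Markers of other cells differed across the split, in directions that varied by library. In villus-labelled HFD VSG cycling markers were 116 CPM in the cells with gasdermin counts and 26.2 CPM in those without, stem cell markers 60.7 and 25.3 CPM and goblet markers 628 and 248 CPM. Goblet markers were also higher in villus-labelled HFD sham (3023 and 835 CPM) and lower in villus-labelled LFD sham (293 and 1736 CPM) and crypt-labelled HFD sham (210 and 737 CPM). Cycling markers were lower in villus-labelled LFD sham (30.2 and 58.5 CPM). The part of these markers in the split was not tested.

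The rule sums 4 genes, so a member high in Car4 can pass with less Ms4a18, and the comparison was repeated over all eligible barcodes. In villus-labelled HFD VSG the 666 barcodes with at least 5 gasdermin UMIs had 395 CPM of Car4 against 159 CPM in the 2125 with none, but 70.1 against 68.1 CPM of Ms4a18 and 57.7 against 56.3 CPM of Ces1f. The barcodes with none also held more of other cell types, with goblet markers at 13062 against 1418 CPM and stem cell markers at 1016 against 273 CPM, and their part in the Car4 gap was not tested. Without the rule, Car4 was higher in the cells with gasdermin counts in all 6 libraries, and Ms4a18 was lower in 1 of 6. Of these 666 barcodes 35.1% were members, against 14.2% of those with no gasdermin UMI.

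**Figure D4:**
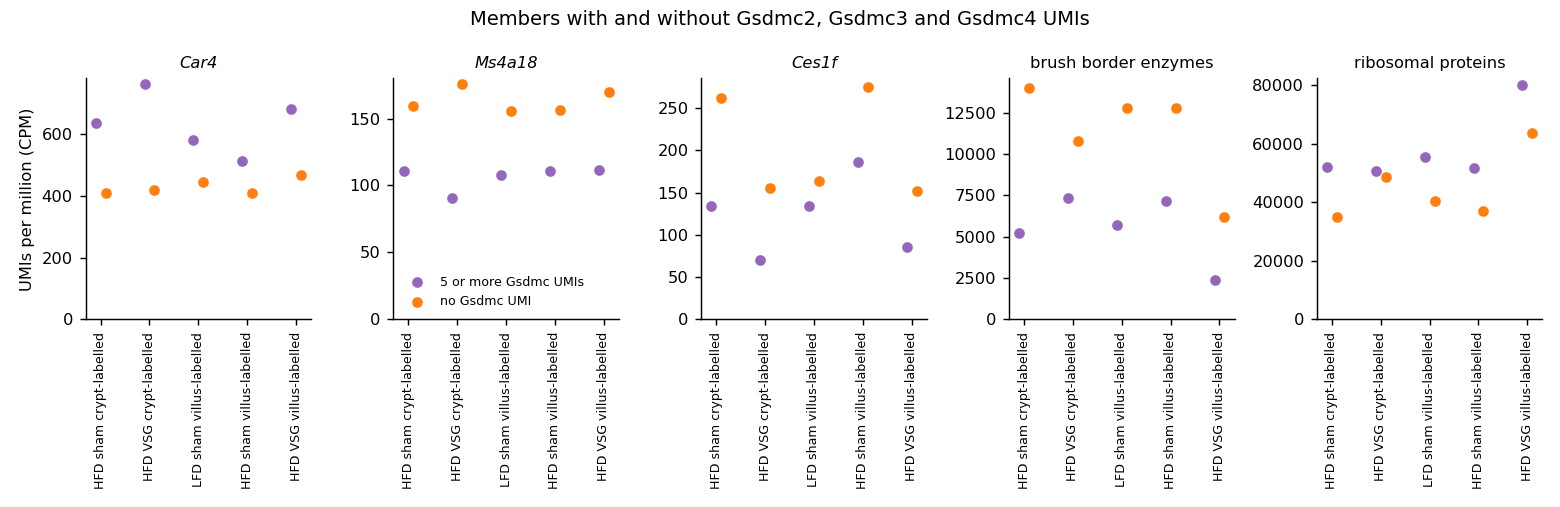
Levels in CPM of 3 genes of the score and 2 lists in members with at least 5 UMIs of Gsdmc2, Gsdmc3 and Gsdmc4 (purple) and with none (orange), in the 5 libraries with at least 7 of the former. In villus-labelled HFD VSG, Car4 is 683 against 468 CPM and the brush border list 2407 against 6161 CPM.

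For the question of diet, HFD sham members were set against LFD sham members within each fraction. In the crypt-labelled pair, 490 of 5482 genes (8.94%) were higher and 311 (5.67%) lower by a log2 ratio beyond 0.5, and in the villus-labelled pair 497 of 9279 (5.36%) and 584 (6.29%). The split depended on the setting. With the top 10% of each library as members the crypt-labelled counts turned to 336 higher and 483 lower, and with the stated free RNA fractions subtracted they were 897 and 193. These fractions are those the authors estimated for each library, and they were highest in both HFD sham libraries. The HFD sham members also serve in the comparison for the operation below. The villus-labelled counts turned to 804 higher and 605 lower with at most 10% mitochondrial UMIs and to 564 and 509 with scaling by median ratios. Of 5478 genes measured in both fractions, 160 were higher in both pairs and 58 lower in both. Both fractions came from the same mice and are not replicates. In bulk sums of this kind fewer cells of a state and less RNA per cell cannot be told apart.

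The named genes most above LFD sham in both pairs included several carriers. Slc13a1, the sodium-sulfate cotransporter, was 27.6 CPM in LFD sham and 97.4 CPM in HFD sham members of the crypt-labelled pair (log2 ratio 1.82, interval 1.29 to 2.40) and 28.9 and 107 CPM in the villus-labelled pair (1.89, 1.65 to 2.14). Akr1c19, an aldo-keto reductase, was 138 and 515 CPM (1.90) and 150 and 484 CPM (1.69). The concentrative nucleoside transporter Slc28a1 had 1.80 and 1.89, Treh 1.57 and 1.59, Slc5a4b 1.5 and 1.43 (the former -0.060 with the top 10% of each library as members), and Egln3, an oxygen-sensing prolyl hydroxylase, 1.63 and 1.76. Gm3776, a glutathione transferase gene nearly identical to Gsta1, had 1.48 and 1.74. Free RNA held Treh at 136 and 189 CPM in the crypt-labelled and 46.1 and 71.8 CPM in the villus-labelled pair. It held Slc5a4b at 128 and 175 CPM and at 37.2 and 84.0 CPM. For both genes these levels were above the members in each library. For Slc13a1, Slc28a1, Akr1c19, Egln3 and Gm3776 the HFD sham members were above the free RNA in both pairs. The part of free RNA in these ratios was not tested. In other enterocytes the ratios were 1.03 and 1.74 for Slc13a1, 1.73 and 2.03 for Akr1c19 and 1.66 and 1.95 for Gm3776. Egln3 had 1.22 and 1.68 there, Slc28a1 0.76 and 1.32, Treh 0.38 and 0.78 and Slc5a4b 0.20 and 0.78. Sprr2a3 met the rule for naming but had 1 and 2 UMIs in the LFD sham members and 22 and 36 in HFD sham, too few for a fold.

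The lowest was Cd74, the invariant chain of MHC class II, at 252 and 24.4 CPM in the crypt-labelled pair (-3.37, -3.77 to -2.98) and 224 and 18.9 CPM in the villus-labelled pair (-3.57, -3.78 to -3.37). It was 28.1 and 25 CPM in HFD VSG members, near HFD sham. Of 6 MHC class II genes measured in the villus-labelled pair 6 were lower (median -3.12), and other enterocytes had a median of -3.31 for the same genes. Cd74 in free RNA was 509 and 45.3 CPM in the crypt-labelled and 415 and 21.8 CPM in the villus-labelled pair, above the members in each, and its part in the difference was not tested. Reg3g, an antimicrobial lectin, was 6630 and 2149 CPM (-1.63) and 5721 and 1742 CPM (-1.72). Hsph1 had -1.94 and -1.96, Dmbt1 -1.65 and -1.60, Acaa1b -1.45 and -1.55, Cyp4a10 -1.41 and -1.67, and the cholesterol synthesis enzyme Fdps -1.22 and -1.30. The last 3 act in lipid handling. In other enterocytes Reg3g had -0.90 and -1.72, Hsph1 -1.60 and -2.52 and Dmbt1 -0.76 and -2.27. Acaa1b had -0.93 and -0.86 there, Cyp4a10 0.48 and -0.75 and Fdps -0.75 and -1.62.

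By list, brush border hydrolases were above LFD sham in HFD sham members, with medians of 0.44 in the crypt-labelled pair (7 higher and 2 lower of 17) and 0.51 in the villus-labelled pair (9 higher and 1 lower). The abundant sucrase-isomaltase Sis went the other way (-0.54 and -0.50), as did the maltase-glucoamylase Mgam (-0.59 and -0.61), and the summed list was 12640 CPM in LFD sham and 12626 CPM in HFD sham of the crypt-labelled pair and 10990 and 11295 CPM in the villus-labelled pair. In other enterocytes the medians of the same genes were 0.09 and 0.30. Transporters of sugars, peptides and amino acids had medians of 0.50 and 0.45, with 8 higher and 3 lower of 16 in the crypt-labelled pair and 6 and 3 in the villus-labelled pair, and the former median was -0.10 with the top 10% of each library as members. Among them the glucose carriers went down, Slc5a1 from 1567 to 976 CPM and from 1254 to 766 CPM and Slc2a2 from 174 to 83.7 CPM and from 159 to 61.7 CPM. Genes of fat uptake and chylomicron assembly had medians of 0.32 and 0.35, and xenobiotic enzymes 0.34 and 0.42. Carboxylesterases had 0.42 and 0.67, with Ces2a at 196 and 478 CPM in the crypt-labelled pair and 171 and 507 CPM in the villus-labelled pair. Ketogenesis and fatty acid oxidation had -0.06 and -0.20, and ribosomal proteins -0.10 and -0.09. The type 2 response genes had medians of 0.85 (7 higher and 1 lower of 9 measured) and 0.28 (2 and 2 of 12), and the former was -0.38 with at most 10% mitochondrial UMIs. In crypt-labelled HFD sham, all 182 Pla2g4c UMIs, 48 of 74 Gsdmc2 UMIs and 104 of 169 Gsdmc4 UMIs each came from 1 member. With that member left out, Gsdmc2 was 9.78 CPM against 6.91 CPM in LFD sham, and Gsdmc4 24.5 against 16.4 CPM. Among the rule genes, Ces1f (0.68 and 0.72) was above LFD sham in both pairs, Rgn had 0.70 and 0.52, Car4 -0.16 and -0.12, and Ms4a18 -0.05 and 0.07.

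For the question of the operation, HFD VSG members were set against HFD sham members. In the crypt-labelled pair 332 of 5482 genes (6.06%) were higher and 251 (4.58%) lower. In the villus-labelled pair 1328 of 9279 (14.3%) were higher and 2713 (29.2%) lower, and the median of all genes was -0.17. With scaling by median ratios the villus-labelled counts were 2055 and 1864 and the crypt-labelled ones 237 and 333. The HFD VSG members of the villus-labelled pair had a median of 35408 UMIs against 15402 in HFD sham. With the HFD VSG members thinned to the HFD sham depth, a setting chosen after seeing the data, 3 gene results of this comparison and 0 list medians moved by more than the set limits. Members were not chosen again, and thinning leaves the expected share of each gene within a cell unchanged. This setting therefore cannot show the part of depth in these ratios, which was not tested. In both pairs, 120 genes were higher and 221 lower.

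Several of the genes most above HFD sham were on the list of type 2 cytokine response genes, while Fabp6 and Fdps, given below, were not. The response itself was not measured. Sprr2a3, a small proline-rich protein, was 8.15 and 180 CPM in HFD sham and HFD VSG members of the crypt-labelled pair (4.47, 3.86 to 5.15) and 2.76 and 59.4 CPM in the villus-labelled pair (4.43, 3.95 to 4.94). Of its 22 UMIs in crypt-labelled HFD sham, 17 came from 1 member, and without it the level was 1.88 CPM. Sprr2a3 has close copies, so its counts are uncertain. Gsdmc4 was 62.6 and 159 CPM (1.35) and 25.9 and 194 CPM (2.91), and Gsdmc2 had 1.42 and 3.07. Of the Gsdmc2 UMIs of crypt-labelled HFD sham, 48 of 74 came from 1 member, and without it the level there was 9.78 in place of 27.4 CPM. Pla2g4c was 2.46 and 110 CPM in the villus-labelled pair (5.49), and in the crypt-labelled pair the 182 UMIs of HFD sham came from 1 member while the 1372 of HFD VSG came from 28. Of the Gsdmc4 UMIs of crypt-labelled HFD sham, 104 of 169 also came from 1 member, and without it the level there was 24.5 CPM. AA467197, a small gene of the same list, had 2.09 and 1.89. Of the list of 16, the 9 measured in the crypt-labelled pair had a median of 1.42 (7 higher, 0 lower) and the 12 in the villus-labelled pair 1.70 (8 higher, 2 lower), beside 2.33 and 2.13 in other enterocytes. In members with no UMI of Gsdmc2, Gsdmc3, Gsdmc4 or Pla2g4c, a setting chosen after seeing the data, the median gene of the list was under 3 UMIs in both groups and gave no ratio.

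Fdps was 27.8 and 58.8 CPM in the crypt-labelled pair (1.08) and 33.7 and 87.1 CPM in the villus-labelled pair (1.37). LFD sham had 64.8 and 82.9 CPM of it, and other enterocytes had log2 ratios of 1.08 and 1.84. Fabp6, the ileal bile acid binding protein, had 3.80 and 1.98, but 1 member held 1323 of its 3036 UMIs in villus-labelled HFD VSG, and without it the level there was 56.1 in place of 99.3 CPM.

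The genes most below HFD sham were Edn1, the vasoconstrictor peptide endothelin-1 (-1.99 and -2.47), Slc13a1 (-1.48 and -2.23), Akr1c19 (-1.56 and -1.72), Slc5a4b (-1.55 and -2.39), Gm3776 (-1.60 and -1.53), Sgk1, a kinase that raises sodium transport (-1.46, or 0.013 with the stated free RNA fractions subtracted, and -2.01), the glutathione transferase Gsta4 (-1.43 and -1.44) and Areg, a ligand of the EGF receptor (-1.39 and -1.99). In other enterocytes Edn1 had -1.15 and -1.94, Slc13a1 -1.67 and -1.67, Akr1c19 -1.73 and -1.68 and Areg -1.25 and -1.59. Slc5a4b had -0.65 and -0.99 there, Gm3776 -2.03 and -0.84, Sgk1 -0.49 and -1.35 and Gsta4 -1.10 and -0.73. Slc13a1, Akr1c19, Slc5a4b and Gm3776 were also among those most above LFD sham in HFD sham. Both comparisons share the HFD sham members, so a high or low value in that library moves them in opposite directions. Set side by side, Akr1c19 was 138, 515 and 175 CPM in LFD sham, HFD sham and HFD VSG of the crypt-labelled and 150, 484 and 147 CPM of the villus-labelled libraries. Slc5a4b was 31.1, 87.8 and 30.0 CPM and 27.0, 72.8 and 13.9 CPM, and its crypt-labelled HFD sham to LFD sham ratio turns with the choice of members, as given above.

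By list, brush border hydrolases were below HFD sham in HFD VSG members, with medians of -0.60 in the crypt-labelled (9 of 17 lower, 0 higher) and -1.60 in the villus-labelled pair (16 of 17 lower, 0 higher). In other enterocytes the medians were -0.19 and -0.91. Transporters of sugars, peptides and amino acids had -0.54 and -0.92 (8 and 13 of 16 lower, 0 higher), fat uptake genes -0.35 and -0.99, xenobiotic enzymes -0.54 and -1.12, and mid villus genes -0.52 and -1.12. Carboxylesterases had -0.46 and -0.64, and Ces2a was 242 and 205 CPM in HFD VSG. Among the rule genes, whose sum chose the members, Ces1f had -0.82 and -1.05 and Car4 0.17 and 0.38. Ribosomal proteins had 0.45 and 0.85, with 22 of 22 higher in the villus-labelled pair and 5 of 22 in the crypt-labelled pair, and other enterocytes had 0.26 and 1.18. Nuclear genes of oxidative phosphorylation had 0.12 and 0.47, with 0 and 12 of 30 higher. The 13 mitochondrial genes had -0.11 and -0.57, and the 6 transcripts of damaged droplets -0.55 and -1.51, with 6 of 6 lower in the villus-labelled pair. With the stated free RNA fractions subtracted, the villus-labelled mitochondrial median was 0.22 and the crypt-labelled median of the transcripts of damaged droplets 0.84, the latter 0.089 with a fraction of 0.1. The part of RNA quality in these ratios was not tested.

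**Figure D5:**
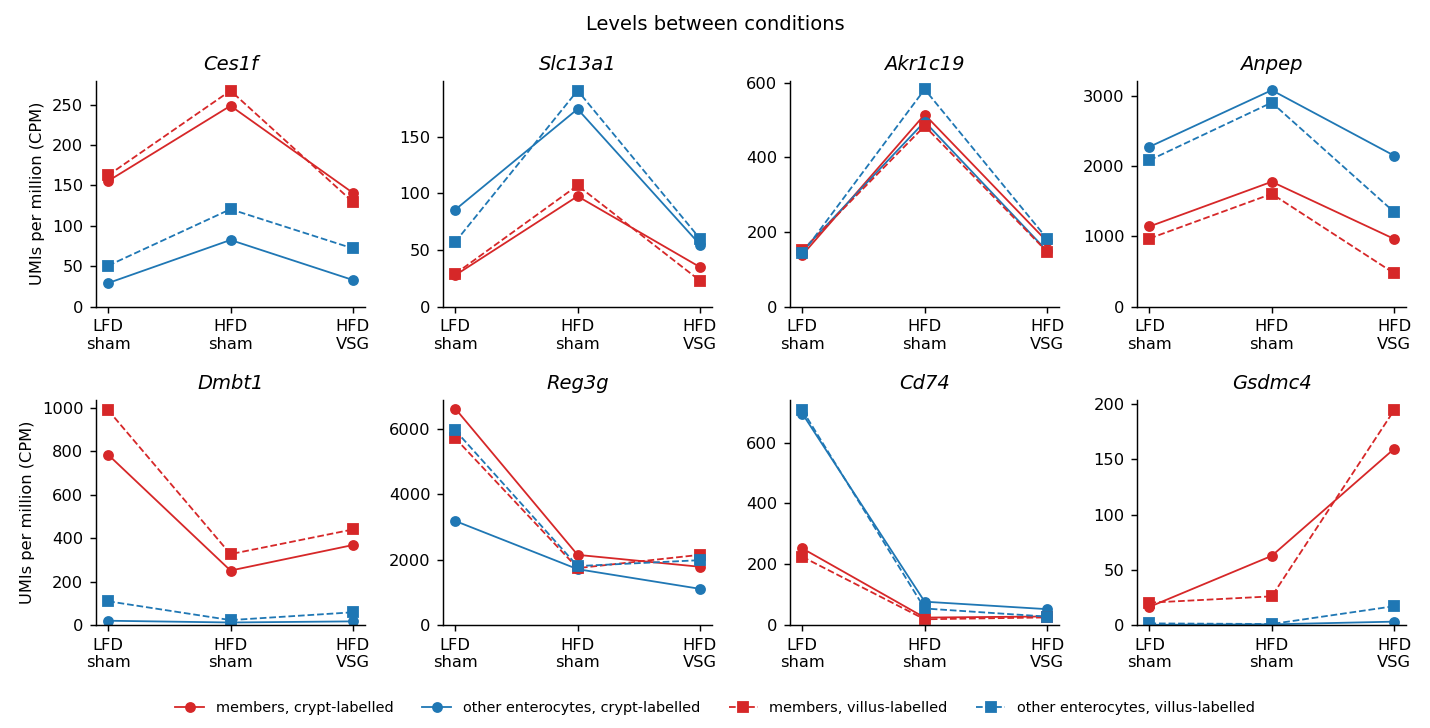
Levels in CPM of 8 genes by group in members (red) and other enterocytes (blue), with crypt-labelled libraries as circles and villus-labelled ones as squares; lines join the libraries of a fraction and there are no replicates. Akr1c19 in members is 515 and 484 CPM in HFD sham and 138 to 175 CPM in the other 4 libraries, while Gsdmc4 is 159 and 194 CPM in HFD VSG and at most 62.6 CPM in the others.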

How the data were processed

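Single-cell RNA libraries (10x Genomics 3' chemistry) of 6 pools of jejunal epithelial suspensions were analysed. The authors aligned reads to mm10 and counted them with Cell Ranger 6.0.0, and the deposited filtered and unfiltered matrices hold raw UMI counts per gene and barcode. Samples were grouped by the labels. Barcodes with at least 750 genes, at most 20% mitochondrial UMIs, under 2% Lyz1 and 0 Cd3e, Cd3g and Ptprc UMIs were eligible. Counts were summed over the cells of a kind in a library and divided by their total (CPM). Log2 ratios have exact conditional Poisson intervals of 95%; shares have exact binomial (Clopper-Pearson) ones. A ratio was counted as higher or lower beyond 0.5, for members against other enterocytes in all 6 libraries. Genes needed a mean of 20 UMIs for members with comparator and 50 between conditions. Intervals cover counting error only. No test was made, since each group had 1 library per fraction. Droplets under 100 UMIs gave the free RNA. Doublets were kept, and an alternative removed the highest doublet scores, set at 0.8% per 1000 barcodes.

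Named genes were the 8 of the 2 scores, the 12 highest and 12 lowest against other enterocytes with the same sign in all 6 libraries and a mean of 50 UMIs, the 8 highest and 8 lowest of each comparison of conditions in both fractions with a mean of 100 UMIs, and of each list the 2 with the most UMIs and the 2 with the largest ratios. Other genes of lists were named after their values were seen. A few genes that the rule names are not reported here. The members and lists were chosen with earlier results of these data known. Alternatives changed the limits, score, depth, scaling, minimum counts and free RNA, and 3 were chosen after seeing the data. The scripts were tested on simulated data. Positions are from GENCODE (GRCm38) and promoters from RefSeq (GRCm38.p6). The work was done in Python 3.11.15, with scikit-learn 1.9.0 for neighbours, pandas 2.3.3, scipy 1.17.1, numpy 2.4.6 and matplotlib 3.10.9.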

Additional observations from a re-analysis of the deposited data

Results flagged for a closer look

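In members, Pla2g4c had a log2 ratio of HFD sham to LFD sham of 4.70 in the crypt-labelled and of -0.72 in the villus-labelled libraries. These opposite directions were not tested, and all 182 UMIs of the crypt-labelled HFD sham library came from 1 member. The tip gene Clca4a had 0.62 and -0.60 in the same comparisons, also untested, and its UMIs in members also depend on the rule, which left out barcodes high in it.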

How the results depend on the processing

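Values are given in the order LFD sham, HFD sham and HFD VSG, crypt-labelled before villus-labelled. When barcodes of at least 3000 UMIs were thinned to 3000, those tied at the 90th percentile of 2 UMIs were kept, so more than 10% passed. The share of members was 4.17%, 10.9%, 9.31%, 14.7%, 27.0% and 29.7% in that setting. In the top 5% it was 0.552%, 2.71%, 1.90%, 3.50%, 11.2% and 10.4%. With only thinned scores above the 90th percentile it moved to 3.94%, 6.17%, 13.4% and 15.1% in the last 4 libraries, without Car4 to 1.80%, 7.77%, 24.3% and 13.1% in both crypt-labelled sham libraries and both villus-labelled HFD ones, with at most 10% mitochondrial UMIs to 5.48%, 5.34%, 16.1% and 14.4% in the last 4, without barcodes of other classes to 10.5%, 22.2% and 25.7% in the villus-labelled ones, and with members chosen on a share of 0.5 of the UMIs to 1.82% in the first.

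Counts of genes between conditions moved as follows, in the order HFD to LFD higher and lower, then VSG to HFD higher and lower. With at most 10% mitochondrial UMIs they were 299, 101, 88 and 159 in the crypt-labelled pairs, and 804 and 840 higher in the villus-labelled ones. With the stated free RNA fractions subtracted they were 897, 193, 187 and 429 (crypt-labelled). With a mean of at least 200 UMIs they were 146, 35, 55 and 102, and 252 and 168 for HFD to LFD in the villus-labelled pair. With at least 1 UMI they were 1228, 5703, 1909 and 4007, and 971, 6308, 2109 and 7956. Sums under 3 UMIs were set to 3 there, and the share of the lower counts that came from this was not separated. With the top 10% of each library, 483 were lower (HFD to LFD) and 611 higher (VSG to HFD) in the crypt-labelled pairs and 329 higher (HFD to LFD) in the villus-labelled one. In the crypt-labelled pairs the top 5% gave 163 lower (HFD to LFD) and 108 higher (VSG to HFD), and values from unused UMIs 198 and 206. Without members with gasdermin or Pla2g4c UMIs, 195 and 739 were higher (VSG to HFD), and with median ratios 2055 in the villus-labelled pair. Against other enterocytes, median ratios gave 1244 higher and 931 lower, and all other eligible barcodes 137 higher.

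These results turned direction. For HFD to LFD in the crypt-labelled pair, Sprr2a3 was -1.13 with at least 1500 genes, -1.90 with at most 10% mitochondrial UMIs and -0.63 without the gasdermin members, and -1.53 in the villus-labelled pair with at most 10%. The type 2 median was -0.38 with at most 10%, the tip gene median -0.23 with stated fractions, and Slc5a4b -0.060 and the transporter median -0.10 with the top 10% of each library. For VSG to HFD, Pla2g4c, Gsdmc2, Gsdmc4 and the type 2 median came to -0.25 (crypt-labelled) and -0.026 (villus-labelled) without the gasdermin members by construction, as sums set to 3 UMIs. With stated fractions Sgk1 was 0.013 and the damaged droplet median 0.84 in the crypt-labelled pair (0.089 with a fraction of 0.1), and the mitochondrial median 0.22 in the villus-labelled one. Against all other eligible barcodes Fgfbp1 was -0.18, Kcne3 -0.79, 1700097N02Rik -0.15 and the retinoid median 0.15. Causes were not tested, except where the construction is stated. With 1 library a group, no library could be left out, and depth limits values to counting error.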
